A study of Mus musculus with 12 samples.

Results

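A set of 10 genes linked to neutrophils were followed in the left ventricle of mice with a loaded, infarcted or hormone-treated heart. They are the granule and cytosolic proteins S100a8, S100a9, Lcn2, Ngp and Mmp8, the receptors Csf3r, Cxcr2 and Il1r2, and the chemokines Cxcl1 and Cxcl5. The 10 genes were taken by symbol from the platform annotation, out of 18194 genes with a probe set, and all 10 had at least 1 probe set. Of these, 9 had 1 probe set and Cxcl1 had 3, and each gene is described by its brightest probe set unless another is named. Of the 10, 6 were bright enough to enter the tests across 11624 genes, and Mmp8, Cxcr2, Il1r2 and Cxcl5 were not.

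Neutrophils are short-lived white blood cells made in the bone marrow, and they are among the first cells to enter injured heart muscle. Chemokines such as Cxcl1 and Cxcl5, made by activated tissue cells, attract them through the receptor Cxcr2, while the growth factor receptor Csf3r drives their production and survival. Their stored proteins act on microbes, iron and matrix, and S100a8 and S100a9 pair into calprotectin, a calcium-binding complex that is abundant in the neutrophil cytosol. Several of these genes are not confined to neutrophils, since monocytes also express S100a8 and S100a9 and stressed epithelial, endothelial and muscle cells can express Lcn2.

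Total RNA of the left ventricle was hybridised to 12 Affymetrix arrays of 1 colour, from Balb/c mice aged 6 to 8 weeks. Transverse aortic constriction (TAC), which narrows the aorta and raises the pressure load on the ventricle, was sampled at 1 day, 1 week and 1 month. Myocardial infarction (MI) by ligation of the left coronary artery was sampled at 1 week and 1 month, and infusion of the pressor hormone angiotensin II (Ang II) at 2 mg/kg/day at 1 week. Each of these 6 groups had its own control array of the same time, a sham operation for TAC and MI and a saline infusion for Ang II. No group had a second array, no genetic change is named in any group, and the labels do not say whether an array held 1 animal or a pool. The series description lets the coronary artery reperfuse after a short occlusion and places a 1 day harvest in the MI series, whereas the array labels name TAC for that time and were followed here.

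Signals were scaled to a common trimmed mean, and values under a floor of 4.54 were raised to it. A signal is given as measured after scaling, and a log2 ratio is the log2 of the procedure signal over the control signal after the floor. The tissue label was checked against 5 ventricular cardiomyocyte markers, including the myosin and actin genes Myh6 and Actc1. Their summed signal was 62020 to 68090 on the control arrays and 52610 to 66460 on the procedure arrays. The 3 atrial markers summed to 943.4 to 2058 on the control arrays and 1245 to 8703 on the procedure arrays. The share of atrial tissue in a sample was not tested. Of 16 neutrophil marker genes, 13 had a probe set and 5 were tested. None was at the floor on all 12 arrays, while Cxcr2, Elane and Cd177 were below the brightness filter (a signal of 18.1) on all 12. Signals of different genes come from different probes, so levels are compared only within a gene.

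All 10 genes had their highest signal on the TAC 1 day array or the MI 1 week array. Of them, 8 peaked on TAC 1 day, and Ngp and Csf3r peaked on MI 1 week. The median log2 ratio of the 10 genes was 2.35 at TAC 1 day and 2.27 at MI 1 week, 0.92 at MI 1 month and 0.33 at TAC 1 month, 0.084 with Ang II and -0.29 at TAC 1 week. In each of the 6 pairs the median over all 18194 genes was 0. The TAC 1 week median stayed below 0 under each of the 4 other settings of scaling and floor that were run, between -0.37 and -0.061.

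**Figure D1:**
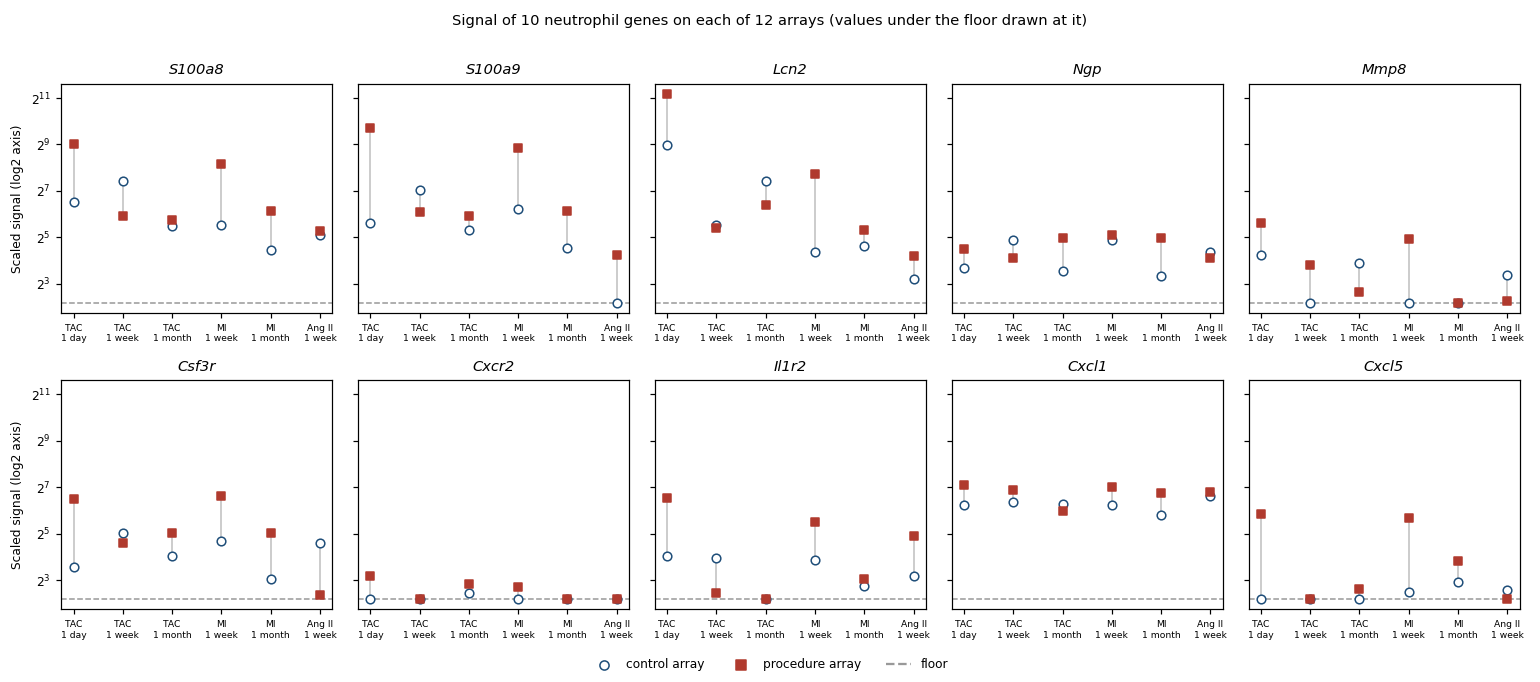
Scaled signal (vertical log2 axis, arbitrary array units) of each of the 10 genes on the 12 arrays, with the 6 procedure-control pairs along the horizontal axis. Open circles are control arrays and filled squares procedure arrays, 1 array each and so without error bars, and the dashed line is the floor of 4.54. The S100a8 circle of the TAC 1 week pair stands above its square, whereas at TAC 1 day and MI 1 week the squares stand above the circles for all 10 genes.

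S100a8 and S100a9 encode the 2 chains of calprotectin and lie close together on chromosome 3. The scaled signal of S100a8 was 516 on TAC 1 day against 91.2 on its sham, 61.0 against 170.5 at TAC 1 week and 54.0 against 44.9 at TAC 1 month. It was 288 against 46.9 at MI 1 week, 70.5 against 22.2 at MI 1 month and 38.9 against 34.65 with Ang II. The 2 highest procedure arrays lay above all 6 controls and the other 4 fell inside the control range. The corresponding log2 ratios were 2.50, -1.48, 0.26, 2.62, 1.67 and 0.17.

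For S100a9 the signal was 831 on TAC 1 day against 49.1 on its sham, 68.0 against 131.8 at TAC 1 week and 60.9 against 40.3 at TAC 1 month. The MI pairs read 462.5 against 74.2 at 1 week and 70.1 against 23.3 at 1 month. With Ang II the signal was 19.0, and the control, at 3.96, was under the floor. Again only TAC 1 day and MI 1 week exceeded every control, and the Ang II array was the lowest of the 6 procedure arrays although its ratio to its own control was positive. The log2 ratios were 4.08, -0.95, 0.60, 2.64, 1.59 and, as a lower bound set by the floor, 2.07. Across the 12 arrays the log2 levels of S100a8 and S100a9 had a Pearson correlation of 0.886, the highest of the 45 pairs among the 10 genes. The arrays share their scaling and the 12 points are not replicates of a condition, so this is a description.

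The promoters of these 2 genes and of Lcn2, the secreted siderophore-binding protein described next, are shown because these 3 genes had the largest mean log2 ratios over the 6 pairs among the 6 that were tested. The sequences are the 250 bases before the start site in RefSeq's GRCm38.p6 annotation, a C57BL/6J reference and not the Balb/c strain studied, written 5' to 3' on the gene's strand. S100a8 is at chr3:90668821-90669070 on the plus strand, S100a9 at chr3:90695722-90695971 on the minus strand and Lcn2 at chr2:32387740-32387989 on the minus strand. Capitals mark matches to a C/EBP form (TTNNGNAA, both strands), a loose NF-kB form (GGG, then 5 bases of any kind, then CC, both strands) or the TATA box letters (TATAAA, gene strand).
S100a8: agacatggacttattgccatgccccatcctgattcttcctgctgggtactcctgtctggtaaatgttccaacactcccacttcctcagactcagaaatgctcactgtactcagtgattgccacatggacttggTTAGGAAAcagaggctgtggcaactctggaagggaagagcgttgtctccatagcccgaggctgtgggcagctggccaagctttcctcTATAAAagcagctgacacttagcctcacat
S100a9: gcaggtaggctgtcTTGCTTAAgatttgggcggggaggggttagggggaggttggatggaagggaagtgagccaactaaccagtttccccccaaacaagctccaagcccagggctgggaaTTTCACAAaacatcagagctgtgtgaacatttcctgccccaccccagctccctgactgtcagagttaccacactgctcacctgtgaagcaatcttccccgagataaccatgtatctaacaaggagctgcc
Lcn2: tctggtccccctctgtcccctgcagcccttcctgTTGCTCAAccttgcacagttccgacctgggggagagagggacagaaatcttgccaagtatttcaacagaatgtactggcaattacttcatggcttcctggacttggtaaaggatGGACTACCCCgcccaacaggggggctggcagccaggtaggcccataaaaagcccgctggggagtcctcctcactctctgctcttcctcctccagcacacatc
S100a8 held 1 C/EBP match, at -117 to -110 from the start site, and the only TATAAA match of the set, at -30 to -25. S100a9 held 2 C/EBP matches, at -236 to -229 and -130 to -123, and Lcn2 held 1 C/EBP match at -216 to -209 and 1 NF-kB match at -102 to -93. Promoters were found for 9 of the 10 genes, all but Cxcl5. The C/EBP form occurred in 5 of the 9, against 36.8% of 32851 promoters of the same length, and the TATAAA letters in 1 of 9, against 7.59%. A match describes letters in this window and is neither a binding site nor a cause.

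Lcn2 encodes lipocalin 2, which binds bacterial iron carriers. Its signal was 2311 on TAC 1 day against 500.4 on its sham, 42.4 against 46.1 at TAC 1 week and 82.9 against 172 at TAC 1 month. In the MI series it was 209.5 against 20.8 at 1 week and 39.7 against 24.6 at 1 month, and with Ang II it was 18.3 against 9.20. The TAC 1 day sham alone stood above every procedure array except TAC 1 day itself, so MI 1 week, with a log2 ratio of 3.33 to its own sham, still lay inside the control range. The other log2 ratios were 2.21 at TAC 1 day, -0.12 at TAC 1 week, -1.05 at TAC 1 month, 0.69 at MI 1 month and 0.99 with Ang II.

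Ngp, the neutrophilic granule protein of maturing cells, was dim and followed another order. Its signal was 22.5 against 12.97 at TAC 1 day, 17.4 against 30.0 at TAC 1 week, 31.0 against 11.8 at TAC 1 month, 34.65 against 29.3 at MI 1 week, 31.1 against 10.1 at MI 1 month and 17.3 against 21.0 with Ang II. The arrays at MI 1 week and both 1 month procedures exceeded all controls, and TAC 1 day did not. The log2 ratio was 1.39 at TAC 1 month and 1.63 at MI 1 month, where the 2 shams were the lowest of the 6 controls.

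Mmp8, the collagenase of neutrophil granules, was at the floor on 4 arrays. It read 48.7 on TAC 1 day against 19.0, 13.97 against a sham under the floor at TAC 1 week, and 6.28 against 15.0 at TAC 1 month. At MI 1 week it read 30.1 against a sham under the floor, at MI 1 month both arrays were under the floor, and with Ang II it read 4.73 against 10.3. Its log2 ratio was 1.36 at TAC 1 day and at least 2.73 at MI 1 week. At TAC 1 week the lower bound of 1.62 was reached by an array that lay inside the control range.

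Among the receptors, Csf3r, which binds granulocyte colony-stimulating factor, was the only one bright enough to be tested. Its signal was 88.6 against 11.7 at TAC 1 day, 23.8 against 32.5 at TAC 1 week, 32.8 against 16.6 at TAC 1 month, 98.6 against 25.9 at MI 1 week, 32.4 against 8.31 at MI 1 month and 5.05 against 24.1 with Ang II. TAC 1 day and MI 1 week stood well above the controls, TAC 1 month exceeded the highest control (32.5) only barely, and the Ang II array was the lowest of all 12. The log2 ratios ran from -2.25 with Ang II to 2.92 at TAC 1 day.

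Il1r2 encodes the decoy receptor for interleukin 1, which binds the cytokine without signalling. Its signal was 93.2 against 16.6 at TAC 1 day, 5.37 against 15.4 at TAC 1 week, 45.4 against 14.7 at MI 1 week, 8.18 against 6.64 at MI 1 month and 29.4 against 8.98 with Ang II. Both TAC 1 month arrays were under the floor. TAC 1 day, MI 1 week and Ang II exceeded every control, with log2 ratios of 2.48, 1.63 and 1.71, while TAC 1 week was lower than its sham by a log2 ratio of -1.52.

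Cxcr2, the receptor for Cxcl1 and Cxcl5, gave signals of 1.45 to 9.14 on the 12 arrays. The floor held 8 of these arrays and none passed the brightness filter, so no change in Cxcr2 can be read from them. Its highest signal was again on TAC 1 day, with a lower bound of 1.01 for the log2 ratio.

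The chemokine Cxcl1 attracts neutrophils and is made by many activated cell types. On its brightest probe set (1441855_x_at) the signal was 138.2 against 74.2 at TAC 1 day, 119.2 against 83.3 at TAC 1 week, 62.3 against 76.4 at TAC 1 month, 129.3 against 75.8 at MI 1 week, 106.6 against 54.9 at MI 1 month and 111.1 against 98.3 with Ang II. On 5 of the 6 procedure arrays it exceeded all controls, yet no log2 ratio reached 1, the largest being 0.96 at MI 1 month. The suffix of this probe set marks probes that may also match other transcripts. Probe set 1419209_at, whose suffix marks a match to 1 transcript, read 199 against 22.5 at TAC 1 day and 255.4 against 39.6 at MI 1 week, log2 ratios of 3.14 and 2.69. Probe set 1457644_s_at gave 2.31 and 2.09 in the same pairs. Brightness was ranked by the mean log2 signal after the floor. As a geometric mean it was 90.5 for 1441855_x_at, 86.8 for 1457644_s_at and 51.6 for 1419209_at, so the choice between the first 2 was close.

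The 3 Cxcl1 probe sets also differed in sign. At TAC 1 week the brightest gave 0.52, while 1419209_at gave -0.52 and 1457644_s_at gave -0.58. With Ang II, 1457644_s_at gave -0.21 and the others 0.18 and 0.49. At TAC 1 month all 3 were negative, at -0.30, -0.43 and -1.20, although the brightest turned to 0.020 when the signals were used as deposited.

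**Figure D2:**
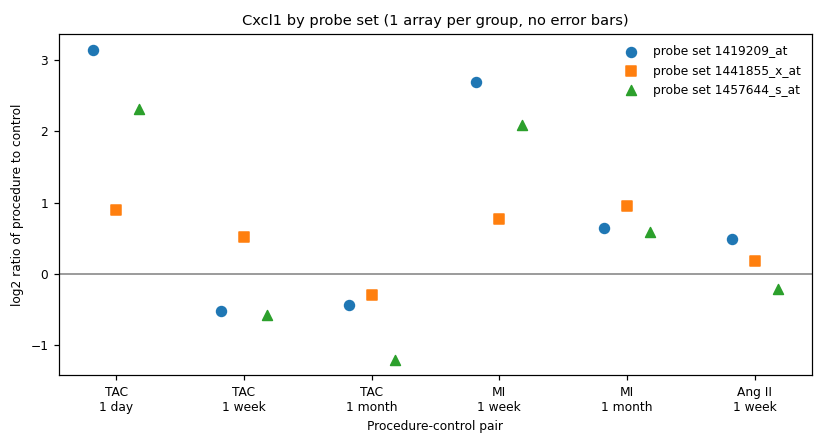
Log2 ratio of procedure to control (vertical axis) of the 3 probe sets of Cxcl1 in the 6 pairs (horizontal axis), 1 array per group and no error bars. At TAC 1 day and MI 1 week probe sets 1419209_at and 1457644_s_at lie between 2.09 and 3.14, above 1441855_x_at at 0.90 and 0.77, and at TAC 1 week they lie on opposite sides of 0 from it.

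The Cxcl1 promoter is shown because it held 4 matches to the NF-kB form, the most of the 9 promoters. It lies at chr5:90890995-90891244 on the plus strand, and capitals mark the matches.
Cxcl1: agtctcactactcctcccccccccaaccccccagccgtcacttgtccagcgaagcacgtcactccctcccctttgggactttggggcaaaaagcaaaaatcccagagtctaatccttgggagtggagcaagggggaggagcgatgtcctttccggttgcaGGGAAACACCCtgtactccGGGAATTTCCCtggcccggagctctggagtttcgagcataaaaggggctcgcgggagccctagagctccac
The matches form 2 overlapping pairs on opposite strands, 1 pair spanning -90 to -80 and the other -71 to -61. The NF-kB form occurred in 4 of the 9 promoters, against 45.8% of all 32851.

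Cxcl5, a related chemokine, was at the floor on 5 arrays. It read 57.9 on TAC 1 day against a sham under the floor and 50.3 against 5.65 on MI 1 week, and its highest signal in the TAC 1 week, TAC 1 month and Ang II pairs was 6.11. At MI 1 month it read 13.96 against 7.58. The log2 ratio was at least 3.67 at TAC 1 day and was 3.16 at MI 1 week, and these 2 arrays were the only ones above the brightness filter.

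With 1 array a group, the 2 arrays of a pair give no test by themselves, so a rule of size was used for single pairs. A gene counted as at least 2-fold higher when its log2 ratio was 1 or more, the brighter signal was above the median of all arrays (25.9) and the procedure array exceeded all 6 controls. At TAC 1 day 7 of the 10 genes met it, against 4.64% of all 18194 genes, and Ngp, Cxcr2 and Cxcl1 on its brightest probe set did not. Both other Cxcl1 probe sets met the rule at TAC 1 day and at MI 1 week. At MI 1 week 6 met it, against 4.68%, namely S100a8, S100a9, Mmp8, Csf3r, Il1r2 and Cxcl5. Elsewhere the count was 0 at TAC 1 week (background 2.15%), 1 at TAC 1 month (Ngp, background 1.56%), 1 at MI 1 month (Ngp, background 2.28%) and 1 with Ang II (Il1r2, background 1.17%). None of the 10 genes was 2-fold lower by the rule in any pair. The background for that was 4.17%, 0.731% and 1.07% at TAC 1 day, 1 week and 1 month, 0.907% and 0.478% at MI 1 week and 1 month, and 0.654% with Ang II.

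A looser count asked only that the procedure array exceed all 6 controls. At TAC 1 day 9 genes did so (background 21%), and 9 at MI 1 week (background 20.4%). The count was 1 at TAC 1 week (19.5%), 3 at TAC 1 month (16.6%), 3 at MI 1 month (16.8%) and 2 with Ang II (14.3%). The exceptions were Ngp at TAC 1 day and Lcn2 at MI 1 week.

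**Figure D3:**
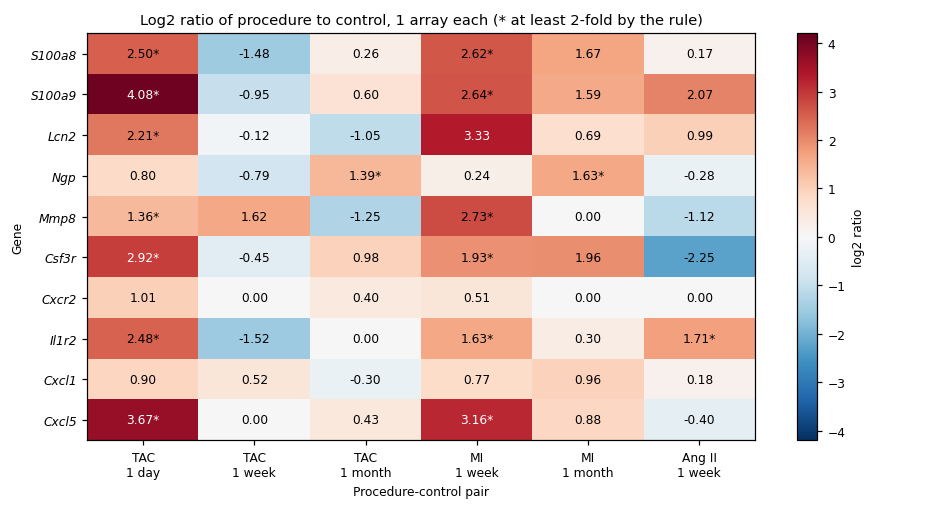
Log2 ratio of procedure to control for each gene (rows) in each of the 6 pairs (columns), 1 array per group, with the value printed in each cell and the colour scale in log2 units. An asterisk marks a gene that met the 2-fold rule, 7 at TAC 1 day and 6 at MI 1 week, and a value of 0.00 with both arrays at the floor carries no measurement.

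The controls themselves differed. For 4 of the 10 genes (S100a8, S100a9, Ngp and Csf3r) the highest control was the TAC 1 week sham, and for Lcn2, Mmp8 and Il1r2 it was the TAC 1 day sham. Among the 3 controls of 1 week, S100a8 read 170.5 in the TAC sham, 46.9 in the MI sham and 34.65 in the Ang II control. S100a9 read 131.8, 74.2 and under the floor in the same order, so that the TAC sham exceeded the Ang II control at least 29.0-fold. By the 2-fold rule S100a8 was higher in the TAC 1 week sham than in the MI 1 week sham (1 of 10 genes, background 1.91%), and S100a8 and S100a9 were higher than in the Ang II control (2 of 10, background 2.02%). The Ang II control was at least 2-fold lower than the TAC 1 week sham for S100a9 and Lcn2 (2 of 10, background 1.35%) and lower than the MI 1 week sham for S100a9 (1 of 10, background 0.808%). At 1 month the MI sham was lower than the TAC sham for S100a8 (1 of 10, background 1.4%).

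Set against these differences, only some of the procedure ratios were large. For S100a9 no pair was higher by more than the largest difference between controls of the same time, a log2 of 4.86, which rests on the Ang II control under the floor. For S100a8 the 2 pairs TAC 1 day and MI 1 week exceeded that largest difference (2.30), and for Lcn2 1 pair did (2.81, between the TAC and MI shams of 1 month). Ngp, Csf3r, Il1r2 and Cxcl5 had 3 such pairs each, Mmp8 had 1 and Cxcl1 had 4 on its brightest probe set. The controls of 1 week differed more on Cxcl1 probe set 1419209_at, at 81.9, 39.6 and 26.1 for the TAC sham, MI sham and Ang II control. The count was not made for the other Cxcl1 probe sets. For Ngp, Il1r2 and Csf3r a further pair was lower by more than the control difference. These were Ngp (-0.79) and Il1r2 (-1.52) at TAC 1 week and Csf3r (-2.25) with Ang II. The floor held 3 of the 6 controls for Mmp8 and for Cxcl5, which shrinks their control difference, and 5 of 6 for Cxcr2, which was left out of this count. No second control was taken at 1 day.

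With the mean of all controls of the same time in place of the paired control, an alternative chosen after seeing the data, the TAC 1 week log2 ratio moved from -1.48 to -0.096 for S100a8, from -0.95 to 0.94 for S100a9 and from -0.12 to 1.04 for Lcn2. The Ang II ratio of S100a9 moved from 2.07 to -0.90, that of Lcn2 at TAC 1 month from -1.05 to 0.35, and that of Lcn2 at MI 1 month from 0.69 to -0.71. At MI 1 week S100a9 was 3.71 by this measure. These 1 week values of S100a9 lean on the Ang II control, which was under the floor. The TAC 1 week array, at 68.0, lay below both the TAC sham (131.8) and the MI sham (74.2) of 1 week. The low TAC 1 week ratios of S100a8 and S100a9 came with the highest of the 6 controls, and the 1 day ratios have no second control.

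Across the 6 pairs, limma was fitted with the pair as a block, and the residual spread includes any difference in response between procedures or times. None of the 6 tested genes passed the Benjamini-Hochberg threshold of 0.05, against 10.9% of the 11624 genes. An unadjusted limma p under 0.05 was reached by 2 of the 6, against 3368 of the 11624 genes. S100a9 had the largest mean log2 ratio, 1.67 ± 0.509 (SE, 6 pairs), with a limma adjusted p of 0.0622 and higher values in 5 of 6 pairs. Cxcl1 followed by p, at 0.50 ± 0.170 and a limma adjusted p of 0.0834, also higher in 5 of 6 pairs. By its other probe sets the Cxcl1 mean was 1.00 (1419209_at, limma adjusted p 0.186) and 0.50 (1457644_s_at, 0.479), and by the mean of all 3 it was 0.67 (0.263). Means of 0.96 ± 0.469 for S100a8, 1.01 ± 0.465 for Lcn2, 0.85 ± 0.585 for Csf3r and 0.50 ± 0.361 for Ngp had limma adjusted p-values of 0.208, 0.183, 0.371 and 0.398. These means leaned on single pairs. That of S100a8 was 0.62 without MI 1 week and 1.44 without TAC 1 week, and that of Lcn2 was 0.54 without MI 1 week. Csf3r had 0.44 without TAC 1 day and 1.47 without Ang II, and Ngp had 0.27 and 0.32 without MI 1 month and TAC 1 month and 0.76 without TAC 1 week. Without the TAC 1 week pair S100a9 passed, at 2.20 and a limma adjusted p of 0.0349, and with signals as deposited both S100a9 (1.75, 0.0321) and Cxcl1 on its brightest probe set (0.60, 0.0453) passed.

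When 1 day, 1 week and 1 month were given separate effects, S100a9 was the only tested gene of the 10 to pass for the 1 day pair, where 13.3% of all genes passed. Its 1 day effect was a log2 ratio of 4.08 ± 1.00 (SE, 1 pair whose spread is taken from the later pairs) with a limma adjusted p of 0.0326. The call did not hold without the TAC 1 month pair (limma adjusted p 0.0550) or without the MI 1 month pair (0.0538). In the full fit S100a8, Lcn2 and Csf3r had 1 day effects of 2.50, 2.21 and 2.92 and did not pass. Their calls changed when the MI 1 week pair was left out, a fit for which no share of all genes is given here. The 1 day effect minus the mean of the later effects was 2.91 ± 1.10 for S100a9, which did not pass (limma adjusted p 0.184, against 3.45% of all genes past the threshold).

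No tested gene of the 10 passed for a difference between procedures or between later times. For TAC minus MI, limma called 0 of the 6 genes and 0 of 11624 genes at an adjusted 0.05, and 0 and 527 at an unadjusted p under 0.05. The largest difference was -1.71 ± 0.977 for S100a8, and the TAC effect mixes 3 times. For 1 week minus 1 month, limma again called 0 of 6 and 0 of 11624, with 1 (Ngp) and 297 at an unadjusted p under 0.05. Ngp differed by -1.78 ± 0.640 with a limma adjusted p of 1. Within MI alone none of the 6 passed (background 0.981%). An unadjusted limma p under 0.05 was reached by 4 of the 6, against 2006 of the 11624 genes. Their effects were 2.14 for S100a8, 2.01 for Lcn2, 1.95 for Csf3r and 0.86 for Cxcl1, with limma adjusted p-values from 0.186 to 0.245.

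The 1 day sham was also compared with the 5 later controls, which differ in series and time. The signal of Lcn2 was higher in it by a log2 of 3.94 ± 1.09, the largest difference of the 6 genes, with an unadjusted limma p of 0.0043 and an adjusted p of 0.250. Limma called 0 of the 6 genes here, against 0.0258% of all genes (3 of 11624), and 1389 genes had an unadjusted p under 0.05. The 1 day sham is a single array and is assumed to vary like the later controls.

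Other genes of the neutrophil were counted from lists drawn up by function. Of 18 other surface receptors that were tested, 2 rose in the mean of 6 pairs and none fell, with a list median of 0.68 against -0.0038 over all genes tested, of which 5.16% rose. Itgb2, the beta chain of the leukocyte integrins, rose by a log2 of 1.23 ± 0.273 (limma adjusted p 0.0252, higher in 6 of 6 pairs). The lectin receptor Clec4d had a mean of 1.51 with a limma adjusted p of 0.228, and a log2 ratio of 5.53 at MI 1 week. At 1 day 6 of the 18 rose, against 4.88% of all genes.

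Of 27 genes in a list of other granule and oxidase proteins, which also held the receptor Ltb4r1, 21 had a probe set. Only 5 were bright enough to test, of which 4 rose and none fell, with a median of 0.88. Lyz2, 1 of these, is also in the macrophage list. The oxidase subunits Ncf4 (1.15 ± 0.268, limma adjusted p 0.0288) and Ncf1 (1.00 ± 0.229, limma adjusted p 0.0264) were among them, and both are also made by monocytes and macrophages. Mmp9, the gelatinase of neutrophil granules, had a mean of 0.88 (limma adjusted p 0.370) with 4.41 at MI 1 week. Of the 16 untested genes of this list, 11 had no array above the median signal of all arrays (25.9). Among these 11, on the TAC 1 day array Mpo read 9.50 against 15.8 on the sham, Elane 4.42 against 4.74, Ltf 6.52 against 8.22 and Camp 11.7 against 11.1. Others were higher there, with log2 ratios of 1.21 for Pglyrp1, 0.46 for Ctsg and 0.31 for Olfm4. Padi4 and Cd177 were lower, at -2.38 and -0.12, and Itgb2l and Stfa3 were under the floor on both arrays. At MI 1 week the log2 ratios of Mpo, Elane, Ltf and Camp were 1.85, 1.60, 1.67 and 0.26. Those of Pglyrp1, Padi4 and Itgb2l were -0.84, -0.15 and 0.0087 there. Ctsg, Cd177, Olfm4 and Stfa3 were under the floor on both arrays of that pair. The 5 with an array above the median signal were Prtn3, Fcnb, Chil3, Wfdc21 and Ltb4r1. On TAC 1 day Prtn3 read 9.63 against 23.3 and Fcnb 13.95 against 14.4, while Ltb4r1 read 59.9 against a sham under the floor. At MI 1 week the log2 ratios of Prtn3, Fcnb and Ltb4r1 were 0.74, 0.14 and 0.19. Chil3, a chitinase-like protein that monocytes and macrophages also make, read 134.9 on TAC 1 day against a sham under the floor and 144.3 against 5.13 at MI 1 week, and Wfdc21 read 53.8 against 12.4 at TAC 1 day. All of these untested genes were named after their values were seen.

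In each list below, the share of all tested genes that rose, 5.16%, is the background. Among attractants and inducing cytokines 5 were tested and 1 rose, Anxa1, which encodes the resolution protein annexin A1 (0.85 ± 0.112, limma adjusted p 0.00479, higher in 6 of 6 pairs). The cytokine gene Il1b had a mean of 0.70 with a limma adjusted p of 0.135. In the interleukin 1 receptor system 1 of 9 tested genes rose, the signalling receptor Il1r1 (0.68 ± 0.187, limma adjusted p 0.0462), whereas its decoy Il1r2 was too dim to test. Of 12 endothelial adhesion genes 2 rose and none fell, with a median of 0.22, and Icam1 was 1 of them (0.49, limma adjusted p 0.0468). Sele, the endothelial selectin that captures leukocytes, rose at 1 day by a log2 of 4.09 (limma adjusted p 0.0209) and had a mean over pairs of 0.78 (0.402).

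Monocyte and macrophage markers were high in the same pairs. In bulk tissue, more cells of a type and more RNA per cell cannot be told apart. Of 5 monocyte markers, 4 had a probe set and 3 were tested, with medians of 2.16, 0.96, 0.67, 2.43, 1.68 and 0.25 in the order TAC 1 day, 1 week and 1 month, MI 1 week and 1 month, and Ang II. The summed signal of all 4 with a probe set was 150.4 to 272.6 on controls and 216.9 to 926.7 on procedure arrays. Of the 3 tested, 2 rose (background 5.16%), the chemokine receptor Ccr2 (1.96 ± 0.321, limma adjusted p 0.00995) and the matrix proteoglycan Vcan (1.40 ± 0.204, 0.00647). All 10 macrophage markers were tested and 5 rose, with medians of 0.60, 0.20, 0.39, 1.00, 0.75 and 0.076 and summed signals of 3847 to 6533 on controls and 4333 to 13300 on procedures. The 3 tested platelet markers had medians of 1.11, -0.56, 0.024, 1.07, 0.053 and 0.26 in that order and none rose in the mean of 6 pairs, while Pf4, a platelet chemokine, rose at 1 day by 1.11 (limma adjusted p 0.0326). Their list, with 4 probe sets, summed to 332.3 to 445.7 on controls and 373.5 to 664.4 on procedures. Among lymphocyte and mast cell markers few were tested and none rose. At TAC 1 day the medians were -0.49 for B cells (1 gene), 0.60 for NK cells (1 gene) and -0.083 for mast cells (3 genes). At MI 1 week they were 1.02, -0.94 and 0.51 in the same order. Of the 13 neutrophil markers with a probe set, 6 are among the 10 genes. The other 7 summed to 139.2 against 83.2 at TAC 1 day, 94.3 against 119.3 at TAC 1 week and 189.4 against 46.4 at MI 1 week. These markers did not move together. At TAC 1 day Trem1 read 52.3 against a sham under the floor and Mmp9 41.1 against 24.1. Camp read 11.7 against 11.1 there, and Ltf, Elane, Mpo and Cd177 were lower than on the sham. At MI 1 week Mmp9 alone read 96.75, against a sham under the floor. The part of monocytes, macrophages and platelets in the values of S100a8, S100a9 and the other genes was not tested.

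Red-cell markers went another way at 1 day. The 2 tested erythroid genes had a median log2 ratio of -1.38 in the TAC 1 day pair, and Alas2, an enzyme of heme synthesis, fell there by 1.09 on the log2 scale (limma adjusted p 0.0373). The summed signal of the 3 erythroid markers with a probe set was 117.5 on the TAC 1 day array against 257.8 on its sham. It was 216.1 to 452.8 over the 6 controls. The share of blood left in the tissue and its part in these values was not tested. At MI 1 week the 3 atrial markers had a median of 2.90, on the same array where 6 of the 10 genes met the 2-fold rule, and its part was not tested either.

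**Figure D4:**
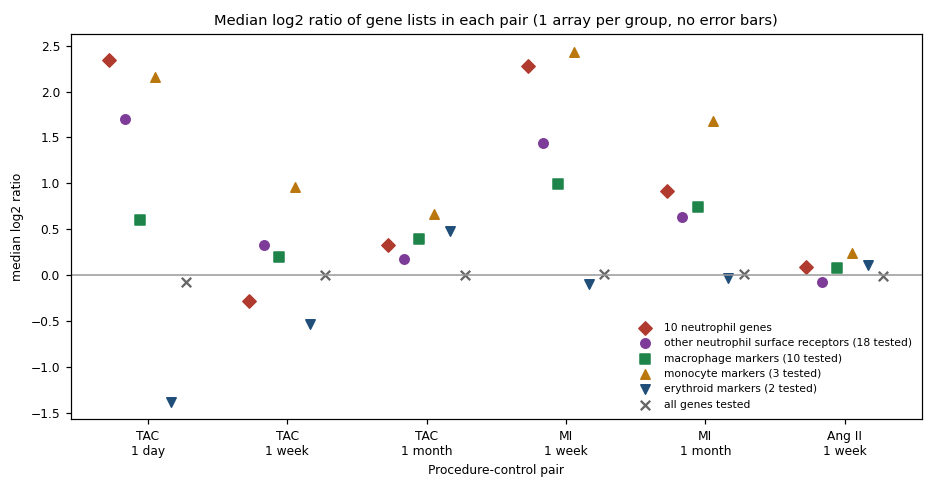
Median log2 ratio (vertical axis) in each of the 6 pairs (horizontal axis) for the 10 neutrophil genes, other neutrophil surface receptors, macrophage, monocyte and erythroid markers and all genes tested, 1 array per group and no error bars. The 10 genes and the monocyte markers both lie above 2 at TAC 1 day and MI 1 week, and the 10 genes lie at -0.29 at TAC 1 week, where the monocyte markers lie at 0.96. The median of the 10 genes includes those too dim to test, whereas the other lists hold tested genes only. Over the 6 tested genes of the 10 the medians, not drawn, are 2.35, -0.62, 0.43, 2.27, 1.61 and 0.17 from left to right.

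The genes with a level most like that of S100a9 were picked as the 8 tested genes with the highest Pearson correlation of log2 level over the 12 arrays. They were Ccl6 (r = 0.950), Glipr2, Rhoa, Ctsc, Lcp1, Fcgr2b, Lrrfip1 and Ccl9 (r = 0.921), and S100a8 with r = 0.886 lay below them. Ccl6 and Ccl9 are chemokines of myeloid cells, Ctsc activates granule proteases and Lcp1 bundles actin in leukocytes. Their ratios at TAC 1 day ran from 0.39 for Rhoa to 3.11 for Ccl9. The 12 arrays share 6 control-procedure pairs and 1 scaling, so these correlations are a description with no test. Among the 10 genes themselves the correlation ranged down to -0.066, between Ngp and Mmp8.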

How the data were processed

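The deposited table holds an intensity for each of 45101 probe sets on each array, a linear signal, and per the submitters' processing notes GCOS was used, with no version given. Which signal algorithm was run, and with what scaling, is not given in the sources used here. The 2% trimmed means were 105.3 to 131, so each array was scaled to a common value (factors 0.872 to 1.08). A floor at the 20th percentile of all values (4.54) was applied before taking log2. The floor held 20 of the 120 values of the 10 genes and 0.183% of the tested values. The annotation gave 1 symbol for 34958 probe sets, several for 932 and none for 9211. The brightest probe set, by mean log2 after the floor, stood for a gene. Tests were run on 11624 genes whose mean log2 exceeded a signal of 18.1, the 40th percentile over named probe sets.

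Models were fitted with limma 3.58.1 in R 4.3.3, with pair as a blocking term, a prior variance that follows intensity and Benjamini-Hochberg adjustment over all tested genes. The pairs follow the series and time in the labels. The p-values reflect only how far these arrays vary, which may be technical, and the number of arrays limits the precision. The fits were tested on simulated data. The 10 genes, the lists and the alternatives were chosen with earlier results of these data known. Named genes are the 10, up to 3 tested genes per list with the largest mean change, and the 8 most like S100a9. Untested marker and granule genes were named after their values were seen. Alternatives to scaling, floor, filter, probe set, block, trend, moderation and pairs were run.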

Additional observations from a re-analysis of the deposited data

How the results depend on the processing

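The count of tested genes of the 10 past the threshold in the mean of 6 pairs (0) became 2 with signals as deposited and ranged from 0 to 1 when each pair was left out. Without the pair as a block the mean of S100a9 was 1.67 with a limma adjusted p of 0.272. The number of all genes past the threshold (1262) fell to 800 with signals as deposited and 694 with the mean of all probe sets. It was 473 without the pair as a block, 241 with no intensity trend and 0 with no filter or no moderation. It was 256, 267, 292 or 295 without MI 1 week, TAC 1 week, MI 1 month or TAC 1 month. The S100a9 effect at 1 day, 4.08, and 3.87 to 4.08 over its alternatives, lost its call with no filter on dim genes (limma adjusted p 0.197), with no intensity trend (0.119) and without either 1 month pair, as given above. In the other 7 alternatives its adjusted p was 0.00586 to 0.0465. The count for the 1 day effect (1) was 0 with no filter or no trend, 2 with the floor at the 40th percentile, where Il1r2 was tested and passed (2.48, limma adjusted p 0.0350), and 0 to 4 when a later pair was left out. Signs turned for S100a9 in 1 week minus 1 month (-0.46 with the floor at the 40th percentile, against 0.16), for S100a9 in the 1 day sham minus later controls (0.56, and -0.16 to 1.05 when a later control was left out, negative without the Ang II control) and for Cxcl1 there (-0.042, against 0.078 as deposited, 0.085 with quantile normalization and 0.049 without the Ang II control). The causes were not tested. Using signals as deposited moved the median of all tested genes to -0.23, 0.21, 0.31 and 0.16 at TAC 1 day, 1 week, 1 month and MI 1 week. The floor set the size for dim genes, the mean of Cxcl5 being 1.29, or 1.69 at a 10th percentile floor and 0.58 at a 40th percentile floor.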

Other observations

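Proteins of the acute inflammatory response that other cells make as well also stood high in these hearts. Of 12 tested, 9 rose in the mean of 6 pairs and none fell, with a median log2 ratio of 1.24 against -0.0038 over all tested genes. Timp1, an inhibitor of metalloproteases, rose by 2.39 ± 0.473 (limma adjusted p 0.0175), with 4.83 at TAC 1 day and 3.67 at MI 1 week. The haptoglobin gene Hp rose by 2.27 ± 0.562 (limma adjusted p 0.0343). Its log2 ratio was 4.43 at MI 1 week and 4.37 at MI 1 month, against 2.64 and 1.59 for S100a9. The Hp signal was lower at 1 month on both arrays, 127 against 6.13, than at 1 week, 383.9 against 17.9. Of 6 other S100 genes tested, 3 rose, all of them among those 9, S100a4 by 1.42, S100a6 by 0.70 and S100a10 by 0.43, each in 6 of 6 pairs (limma adjusted p 0.0280, 0.0172 and 0.0463). Of 9 metalloproteases other than Mmp8 4 rose, among them Mmp3 and Mmp14, by 1.23 and 1.22. On the MI 1 month array the immunoglobulin gene Ighm, the only tested B cell marker, had a log2 ratio of 3.86, and its mean over pairs did not pass (limma adjusted p 0.212).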
